A study of Schizosaccharomyces pombe with 12 samples.

Results

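The comparison was between fission yeast (Schizosaccharomyces pombe) that lack dis2 and wild-type cells, over every annotated locus in the table of counts. It used 6 of the 12 poly(A)+ RNA libraries of the series, 3 of the dis2Δ strain and 3 of the wild-type strain, all of them h+ cells in log phase at 30°C in rich YES medium. In the dis2Δ strain the gene is replaced by a NatMX drug-resistance cassette. The other 6 libraries came from h+ ppn1Δ and swd22Δ strains, in which the cassette is HygMX. Those libraries entered the fit, where they share the estimate of spread, and their values are shown where dis2Δ was set beside them. In such comparisons the cassette differs along with the deletion. Each genotype was represented by 1 strain with 3 biological replicates, so any other difference between the strains cannot be told apart from the deletion.

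Dis2 is the main catalytic subunit of protein phosphatase 1 (PP1) in fission yeast, and Sds21 is the other. PP1 acts with many partner proteins, in mitotic exit and cell polarity among other processes. With Ppn1 and Swd22 it also forms the DPS module of the cleavage and polyadenylation factor, the machine that cuts the 3' ends of RNA polymerase II transcripts before termination. In this yeast, transcription of long non-coding RNAs (lncRNAs) upstream of phosphate genes represses those genes, and 3' processing of the lncRNA sets how strongly.

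The 6 libraries held 19543744 to 22924462 counts each, and replicates of a strain correlated at 0.998 to 0.9985 on the log2 scale, against 0.9883 to 0.9912 between strains. Of 6986 annotated loci, 6110 passed the filter on low counts. Values below are normalized counts, scaled to a common library of 20838181 counts, and changes are log2 fold changes of dis2Δ over wild-type with an SE. That SE was derived from the test named next, as the absolute change divided by the square root of its quasi-likelihood F statistic. A locus was called when its adjusted p was at or below 0.05 (edgeR's quasi-likelihood test, p-values adjusted by Benjamini-Hochberg across the 6110 loci, n = 3 per strain). P-cell transcripts of h+ cells were present at 337 to 583 raw counts for map3, 61 to 156 for map1 and 63 to 89 for map2. The M-cell pheromone genes mfm1, mfm2 and mfm3 held 7 to 16, 33 to 89 and 14 to 29 counts, and mam2 held 84 to 240. The ranges of P-cell and M-cell genes thus overlapped. The mat1-Mc, mat1-Mi, mat3-Mc and mat3-Mi entries all held 0 counts. Whether reads could be counted at these entries was not tested, so they give no check of the mating type. The M-cell genes mam1 (868 to 1074 counts) and sxa2 (247 to 362 counts) were not silent in any library.

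The deleted gene served as the check of the labels. dis2 had 11990, 11733 and 12973 normalized counts in the wild-type libraries and 841, 713 and 875 in the dis2Δ libraries. The strains were far apart, with 6.62% of the wild-type mean left at the locus (log2 change -3.92 ± 0.09). Which part of the locus the remaining counts cover cannot be read from a table of counts per gene. The authors report that the dis2 coding sequence itself had no reads in the dis2Δ strain. All 4 of its nearest coding neighbors rose a little: hom6, for homoserine dehydrogenase, by 0.49 ± 0.07, and rpl29, gpc1 and sec2302 by 0.20, 0.24 and 0.19 on the log2 scale. The calls on these 3 were lost when single libraries were left out (at 0.16 for rpl29 and 0.21 for gpc1 without dis2Δ replicate 3, and at 0.18 for sec2302 without dis2Δ replicate 2). The transcript of the other PP1 enzyme, sds21, held 3167, 2980 and 3182 normalized counts in wild-type and 3166, 3110 and 3044 in dis2Δ, a log2 change of -0.00 ± 0.06. Per kilobase of exon, wild-type dis2 stood at 7953 normalized counts and sds21 at 2114, while in dis2Δ the values were 526 and 2112.

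Apart from dis2, 1190 of 6109 loci tested (19.5%) were called higher in dis2Δ and 1332 (21.8%) lower. Most shifts were moderate: 787 of the rises and 1001 of the falls were under 1.5-fold, and the median over all loci was 0.003. The libraries are from whole cultures, so a change in the number of cells that make a transcript and a change in its amount per cell cannot be told apart. Among coding loci 904 of 4972 rose (18.2%) and 1106 fell (22.2%), with median sizes of 0.37 and -0.32. At least 2-fold, with a mean of 100 or more normalized counts in either strain, 56 coding loci (1.13%) were higher and 27 (0.543%) were lower. For the lists of genes below, the shares of 19.5% and 21.8% are the background for a count of members called.

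**Figure D1:**
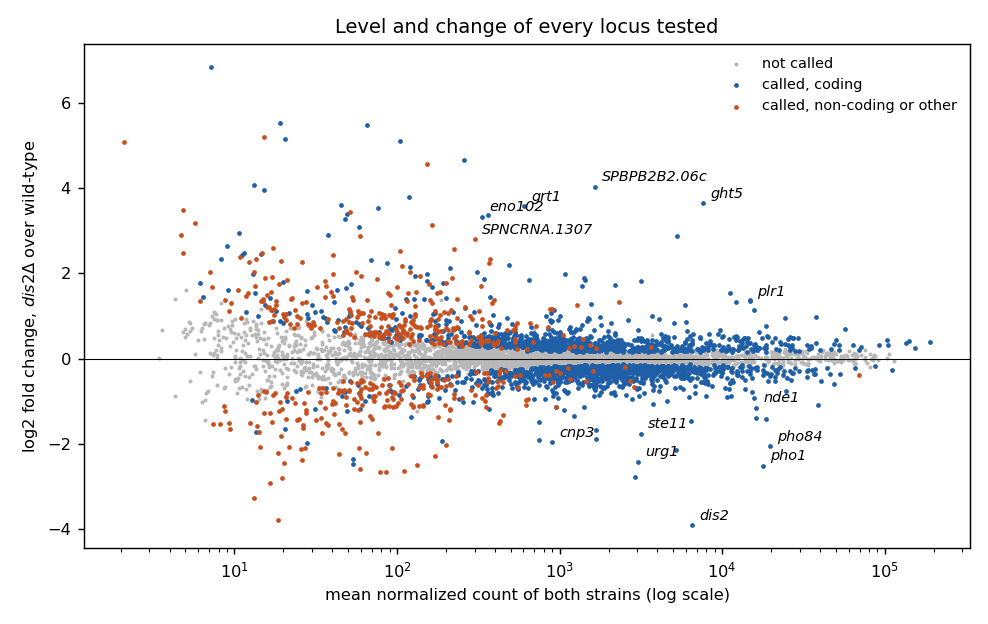
Each point is 1 of 6110 loci, by its mean normalized count over both strains (log scale) and its log2 fold change in dis2Δ over wild-type; blue points are called coding loci, orange points called non-coding or other loci, and grey points were not called. Most called loci lie within 1 log2 unit of 0, with dis2 at -3.92 and ght5 at 3.65.

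The phosphate acquisition genes included 2 of the 10 largest coding falls among loci with a mean of 100 or more normalized counts in either strain. pho1, the secreted acid phosphatase, had 30840, 29331 and 31070 normalized counts in wild-type and 5986, 5565 and 4415 in dis2Δ, a log2 change of -2.51 ± 0.10. pho84, a transporter that takes up inorganic phosphate, had 31681, 30101 and 33070 against 8806, 7915 and 6049, a change of -2.06 ± 0.11. The strains did not overlap for either gene, and dis2Δ replicate 3 was the lowest for both (edgeR's quasi-likelihood test, Benjamini-Hochberg adjusted p = 5.7e-12 for pho1 and 2e-10 for pho84). Both lie within 100 kb of the right end of chromosome II, next to ecl3, which fell by 0.94 ± 0.19 and encodes a small protein linked to chronological lifespan. Transcripts of the vacuolar polyphosphate polymerase subunits fell less, vtc2 by 0.65 and vtc4 by 0.50, and so did asp1, for the kinase and pyrophosphatase of inositol pyrophosphates, by 0.44 on the log2 scale. In all, 10 of 17 phosphate genes tested fell, 3 rose and the median was -0.36.

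Some members of the phosphate list were not lower. tgp1, for a glycerophosphate transporter under the same kind of lncRNA control, stood at -0.15 and was not called. pho7, the transcription factor that activates these genes, stood at 0.14 and was not called either. The transporter gene pho842 rose by 0.38 and siw14, for an inositol pyrophosphate phosphatase, by 0.26. The third called rise, that of csk1, for a kinase that activates Cdk enzymes, was 0.27 and fell to 0.19 and out of the calls without wild-type replicate 3. Picked after their values were seen, SPBC1703.13c, annotated as an inorganic phosphate transporter, fell by 0.92 ± 0.08, and ipk1, for the kinase that makes inositol hexakisphosphate, rose by 0.90 ± 0.06.

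Most hexose transporter genes rose, and the change of one was far above the others. ght5, the high-affinity glucose transporter used when glucose is scarce, had 1212, 1062 and 1125 normalized counts in wild-type and 12990, 14786 and 14815 in dis2Δ. The means were 12.5-fold apart with no overlap (log2 change 3.65 ± 0.12; edgeR's quasi-likelihood test, Benjamini-Hochberg adjusted p = 3.9e-13). Of its 51-base words 70.7% are unique in the genome, so reads shared with its paralogs could move its level. ght1, ght3 and ght4 rose by 1.82, 1.77 and 0.57, while ght2 and ght8 fell by 0.35 and 0.31. Per kilobase of exon ght8 was the most abundant of the family in wild-type, at 8001 normalized counts against 549 for ght5, and in dis2Δ they stood at 6460 and 6878. Of the 8 hexose transporter genes 6 rose and 2 fell.

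Genes of glycolysis and ethanol fermentation rose, most of them by less than 1.5-fold. Of 18 tested, 15 rose and none fell, with a median of 0.34. hxk2, for hexokinase, had 17041, 14915 and 15367 normalized counts against 21171, 23628 and 22108, and pgk1, for phosphoglycerate kinase, had 93935, 84651 and 86260 against 113506, 123737 and 121170. Every dis2Δ library was above every wild-type library for both, at changes of 0.50 ± 0.08 and 0.44 ± 0.08. The phosphoglycerate mutase gene gpm1 rose by 0.42, and the pyruvate decarboxylase genes pdc201 and pdc202 by 0.56 and 0.54. One gene moved on another scale: eno102, a second enolase gene that lies near the left end of chromosome II, had 54.9, 72.7 and 52.2 normalized counts against 569, 613 and 637. It rose by 3.33 ± 0.20, while the abundant enolase gene eno101 rose by 0.31, a call lost without wild-type replicate 3 (0.25) and without dis2Δ replicate 2 (0.28). A lncRNA, SPNCRNA.1302, is annotated across eno102 on the other strand. pfk1, for phosphofructokinase, stood at 0.00 and hxk1 at 0.09, and gpd3, for a second glyceraldehyde 3-phosphate dehydrogenase, at -0.34. None of these 3 was called.

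In a list of 21 glucose-repressed genes and regulators of glucose signalling 8 rose and 6 fell, with a median of 0.01. The regulators are counted with their targets, so these numbers do not describe the targets alone. inv1, the secreted invertase that splits sucrose, rose from 86.5, 64.1 and 82.7 normalized counts to 249, 238 and 259, a change of 1.68 ± 0.17. gal7 and gal10, adjacent galactose genes near the right end of chromosome II, rose by 1.19 ± 0.14 and 0.87 ± 0.18, and mal1, for maltase, by 0.56 ± 0.08. fbp1, the gluconeogenic gene most often used as the marker of glucose derepression, stood at -0.50, a call that rested on wild-type replicate 3 (-0.22 and not called without it). cgs1, the inhibitory subunit of protein kinase A, and ssp2, the catalytic subunit of AMP-activated kinase, fell by 0.66 and 0.57. scr1 and rst2, the repressor and the activator of the glucose-repressed genes, stood at 0.01 and -0.11 and were not called.

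Nuclear genes of the respiratory chain and ATP synthase were mostly lower. Of 52 tested, 30 fell and 3 rose, with a median of -0.30. nde1, an NADH dehydrogenase of the inner membrane, had 23614, 20632 and 22528 normalized counts in wild-type and 10718, 10209 and 9139 in dis2Δ, a change of -1.15 ± 0.08. cyc1, cytochrome c, had 18356, 16396 and 16847 against 10563, 10608 and 10008, a change of -0.73 ± 0.06. The strains overlapped for neither gene. Falls were found in several complexes: cyt1, qcr2 and qcr1 of the cytochrome bc1 complex fell by 0.87, 0.81 and 0.76, and atp14 of the ATP synthase fell by 0.88. Succinate dehydrogenase stood apart, with sdh1, sdh2 and sdh3 at 0.03, -0.10 and -0.12 and not called. Of 18 genes of the tricarboxylic acid cycle 5 rose and 4 fell: cit1, for citrate synthase, and pda1, of pyruvate dehydrogenase, rose by 0.32 and 0.35, and fum1, for fumarase, fell by 0.43. Mitochondrial ribosomal protein genes split 14 up and 16 down among 64.

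Other transcripts for mitochondrial membrane proteins, picked after their values were seen, fell to about the same degree. anc1, the ATP and ADP exchanger, fell by 0.90, yhm2, a carrier for tricarboxylic acids, fell by 0.91, and mic19, mic26 and mic10 of the MICOS complex, which shapes the cristae, fell by 0.88, 0.81 and 0.65 on the log2 scale.

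**Figure D2:**
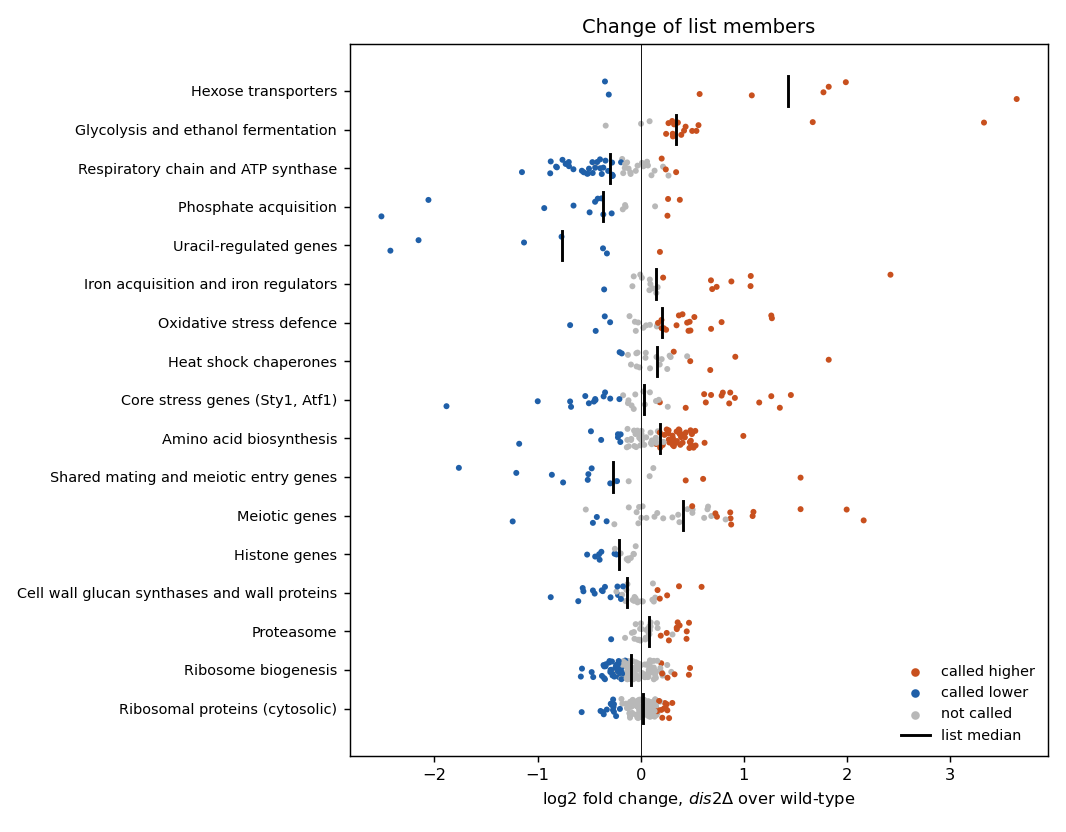
Each point is a member of a list of genes, placed by its log2 fold change in dis2Δ over wild-type; orange is called higher, blue called lower, grey not called, and the black bar is the list's median. Hexose transporter and glycolysis genes lie to the right (medians 1.43 and 0.34), respiratory chain and phosphate genes to the left (-0.30 and -0.36), and cytosolic ribosomal protein genes around 0.03.

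Several metal uptake genes rose. Of 19 iron genes tested, 8 rose and 1 fell. fip1, the plasma membrane iron permease, had 611, 564 and 532 normalized counts against 1135, 1165 and 1282, and fio1, its ferroxidase partner, had 204, 167 and 153 against 291, 284 and 394. Both were higher in every dis2Δ library, by 1.07 ± 0.08 and 0.88 ± 0.15. The ferric reductase genes frp1 and frp2 rose by 1.07 and 0.69, str1, for a siderophore transporter, by 0.74 and abc3, for a vacuolar transporter, by 0.68. Their regulators did not move with them: fep1, the repressor that senses iron, stood at -0.07 and php4, which represses iron-using genes, at 0.09, neither called. Of 17 copper and zinc genes 6 rose and 1 fell. ctr4 and ctr6, copper transporters, rose by 0.87 ± 0.22 and 0.59 ± 0.10 and zym1, the zinc metallothionein, by 0.62 ± 0.14, while cuf1, the activator of copper uptake, fell by 0.31 ± 0.07.

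Stress genes moved in both directions. Of 40 core environmental stress genes, 14 rose and 13 fell. The largest fall was that of rds1, from 2840, 2462 and 2611 normalized counts to 626, 705 and 816, a change of -1.88 ± 0.09. plr1, pyridoxal reductase, rose from 7289, 8861 and 8967 to 21314, 21733 and 20986, and gst2, a glutathione S-transferase, from 3146, 3702 and 3553 to 8683, 7721 and 8630. No dis2Δ library overlapped wild-type for these 3 genes, and plr1 and gst2 changed by 1.35 ± 0.20 and 1.27 ± 0.17. The aldehyde dehydrogenase genes atd1 and atd2 rose by 1.15 and 1.46, and pmp31, a plasma membrane proteolipid, fell by 1.00. Transcripts of the stress pathway itself were lower: the MAP kinase kinase wis1 by 0.45, the MAP kinase sty1 by 0.36, and the paired transcription factors atf1 and pcr1 by 0.44 and 0.68 on the log2 scale.

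Of 30 oxidative stress genes 17 rose and 4 fell. caf5, a membrane transporter of the spermine family, rose by 1.27 ± 0.12, srx1, sulfiredoxin, by 0.79 ± 0.11, obr1, a quinone reductase, by 0.68 ± 0.13 and trx1, thioredoxin, by 0.48 ± 0.11, whereas ctt1, catalase, fell by 0.68 ± 0.08. pap1, the transcription factor of the oxidative stress response, rose by 0.20 ± 0.06. Among 23 heat shock chaperone genes 5 rose and 2 fell. hsp16 had 904, 1687 and 1619 normalized counts in wild-type and 4856, 5680 and 4379 in dis2Δ, a change of 1.82 ± 0.27, with wild-type replicate 1 well below the other wild-type libraries. ssa1, an Hsp70, and wos2, a co-chaperone of Hsp90, rose by 0.92 ± 0.25 and 0.67 ± 0.16, and hsf1, the heat shock factor, stood at -0.09 and was not called.

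The uracil-regulated cluster on chromosome I fell together. urg1, annotated as a GTP cyclohydrolase II, had 4848, 4824 and 5702 normalized counts against 1225, 929 and 697, and urg2, annotated as a putative uracil phosphoribosyltransferase, had 7810, 8051 and 9568 against 2506, 1886 and 1312. Both groups of 3 were well separated, at changes of -2.43 ± 0.24 and -2.15 ± 0.21, with dis2Δ replicate 3 lowest. uck2 and urg3 of the same stretch fell by 1.13 and 0.77, and fur4, the uracil permease, by 0.33. Of 7 uracil genes tested 6 fell and 1 rose.

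The calcium genes were noticed after their values were seen. prz1, the transcription factor that calcineurin activates, had 7947, 8073 and 12115 normalized counts against 3609, 3579 and 3029, a change of -1.46 ± 0.12. Wild-type replicate 3 was the highest and the strains did not overlap. ncs1, a neuronal calcium sensor homolog, pmc1, a vacuolar calcium pump, and cmk1, a calmodulin-dependent kinase, fell by 1.06, 0.69 and 0.66 on the log2 scale.

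The regulators at the top of the mating pathway fell. ste11, the transcription factor that starts sexual differentiation, had 4857, 4104 and 5691 normalized counts in wild-type and 1713, 1476 and 1120 in dis2Δ, a change of -1.76 ± 0.13. mei2, the RNA-binding protein that commits cells to meiosis and a direct target of Ste11, had 1621, 1308 and 1517 against 655, 659 and 613, a change of -1.21 ± 0.10. No library of one strain reached the other (edgeR's quasi-likelihood test, Benjamini-Hochberg adjusted p = 1.4e-08 for ste11 and 1.1e-07 for mei2). Of 16 shared mating genes tested 9 fell and 3 rose. ste6, an exchange factor for Ras, spk1, the MAP kinase of the pheromone pathway, and gpa1, its G protein, fell by 0.86, 0.75 and 0.51, and byr2, a kinase of the same pathway, rose by 0.61. Of 5 P-cell genes tested 3 fell and 1 rose, with map1, a transcription factor, and map3, a pheromone receptor, down by 0.86 and 0.50. Of 8 M-cell genes tested 3 fell and none rose.

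Meiotic genes did not follow ste11. Of 38 tested 11 rose and 4 fell, with a median of 0.42. mug14, annotated as an adducin, rose from 54.9, 41.2 and 35.9 normalized counts to 195, 174 and 224, and spo6, a regulatory subunit of a meiotic kinase, from 59.0, 66.0 and 57.7 to 213, 275 and 246. The strains did not overlap, at changes of 2.16 ± 0.20 and 2.0 ± 0.17. isp3, a spore wall protein, rose by 0.87 ± 0.11 and mei4, the forkhead factor of meiosis, by 0.72 ± 0.18, while spo3, needed for the forespore membrane, fell by 0.46 ± 0.07.

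The promoters of ste11 and mei2 are shown because each holds, within 250 bases before and 50 after the annotated start, the letters bound by Ste11 and by the glucose-starvation factor Rst2. The sequences are from the reference genome ASM294v3, 5' to 3' on the strand of the gene. Capitals mark the TR box TTCTTTGTT of Ste11 in the first pair and the stress starvation element CCCCTC of Rst2 in the second. The matches begin 127 bases before the start of ste11 and 160 before that of mei2 for the TR box, and 167 and 107 bases before for the other.
ste11 TR box, chrII:3983239-3983268, plus strand: aaagttgaatTTCTTTGTTtgattttcatt
mei2 TR box, 1 of 3 in its window, chrI:4515166-4515195, minus strand: gccgaccgatTTCTTTGTTcctattttaaa
ste11 starvation element, chrII:3983197-3983226, plus strand: attttgtcccttCCCCTCatacacattttg
mei2 starvation element, chrI:4515115-4515144, minus strand: ttctcgagctagCCCCTCaggggcattgca

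Searched on both strands, TTCTTTGTT was in 1.97% of all 4972 coding promoters of this length in 2 of the 27 that fell at least 2-fold, those of ste11 and mei2, and in 3 of the 56 that rose at least 2-fold. CCCCTC was in 2.15% of all, in 3 of the 27, the other being that of SPAC2H10.01, annotated as a transcription factor, and in 2 of the 56. TGACGT, the letters of Atf1, stood in 5.87% of all, in 4 of the 27 (mae2, pho84, pmp3 and rds1) and in 1 of the 56. GTAAACA, the forkhead letters, was in 16.5% of all, in 7 of the 27 (urg1, urg2 and uck2 among them) and in 8 of the 56. These genes were chosen by their change, and the counts are a description.

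A stretch of 3 neighboring loci on chromosome II fell together; abp2 was picked after its values were seen. cnp3, a centromere protein, had 1440, 1486 and 1363 normalized counts against 323, 409 and 363, and abp2, an origin-binding protein gene on the opposite strand, had 2747, 2463 and 2473 against 792, 790 and 835. The lncRNA SPNCRNA.1673, which lies between them and overlaps the start of abp2 on the opposite strand, had 180, 211 and 184 against 28, 24.3 and 38.7. All 3 loci were separated between strains, with changes of -1.97 ± 0.11, -1.67 ± 0.10 and -2.65 ± 0.24. naa35, the next coding locus beyond abp2, stood at 0.04 and was not called. Other large falls were those of SPBC19C7.04c (-2.79 ± 0.15), SPAC1687.08 (-1.93 ± 0.29) and SPCC737.04 (-1.91 ± 0.20), all uncharacterized. At SPCC737.04 wild-type replicate 3 was above the others (981, 866 and 1686 normalized counts against 338, 306 and 297), and without it the change was -1.56.

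Amino acid biosynthesis genes rose in 40 of 77 cases and fell in 7, with a median of 0.19. met17, a sulfur amino acid enzyme, rose by 1.00 ± 0.07, arg12 and arg5, for arginine, by 0.62 and 0.53, lys1, for lysine, by 0.53 and ser3, for serine, by 0.51. Against them his3, for histidine, fell from 493, 518 and 532 normalized counts to 252, 124 and 303, with dis2Δ replicate 2 the lowest (-1.18 ± 0.31). Among permease and nitrogen-response genes, isp4, an oligopeptide transporter, fell by 0.94, isp7, an oxygenase-family protein, fell by 0.87, and amt1 and per1, for ammonium and amino acid transport, fell by 0.59 and 0.55. mae2, with the largest fall of that list, went from 53340, 51344 and 53959 normalized counts to 25121, 24998 and 24272, a change of -1.09 ± 0.08. cat1, an arginine and lysine permease, rose by 0.49 ± 0.07. In that list of 22 genes 5 rose and 9 fell.

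Growth genes shifted by small amounts. Of 139 cytosolic ribosomal protein genes 12 rose and 14 fell, with a median of 0.03, while of 132 ribosome biogenesis genes 6 rose and 40 fell, with a median of -0.10. The RNA polymerase III subunit genes rpc25 and rpc11 fell by 0.58 and 0.48. Among 65 genes of tRNA charging and translation 8 rose and 14 fell, with the elongation factor genes tef102 and tef103 down by 0.42 and 0.44. These share long stretches with each other, and only 25.2% and 28% of their words are unique. Of 36 proteasome genes 10 rose and 1 fell, with pre4 and pup3 of the core particle up by 0.47 and 0.36.

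Histone transcripts were lower. Of 16 genes for histones and their regulators 7 fell and none rose. hta2, for H2A, had 25557, 22687 and 26025 normalized counts against 17803, 17507 and 16529, a change of -0.52 ± 0.07, and hta1, hhf1, hhf3, htb1 and hht1 fell by 0.25 to 0.44. Of 34 genes of mitotic entry and the spindle checkpoint 8 fell (23.5%, near the 21.8% over all loci) and 1 rose, with a median of -0.02. Among the falls, plo1, Polo kinase, was down by 0.47 and mik1 and wee1, the kinases that hold back Cdc2, by 0.44 and 0.21. cdc2 itself stood at 0.02 and was not called. The wee1 call was the weakest of these, at -0.21 ± 0.06. Of 25 genes under the MBF factor of the G1-S transition 8 fell and 3 rose, with the cyclin gene cig2 down by 0.48 and cdc18, of replication origin licensing, by 0.43. Of 21 cell separation genes 8 fell and none rose, agn1, for the glucanase of the septum edge, by 0.46.

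Cell wall genes fell in 14 of 36 cases and rose in 5. The glucan synthase genes bgs1 and bgs3 fell by 0.56 and 0.60, omh1, a mannosyltransferase, by 0.87 and pxl1, paxillin of the division ring, by 0.56. Flocculin genes, for adhesive surface proteins, went the other way, with 8 of 15 up and 1 down. pfl9 rose from 177, 173 and 172 normalized counts to 735, 700 and 958, and pfl7 from 301, 267 and 275 to 1105, 969 and 960, with wide gaps between strains (2.19 ± 0.17 and 1.85 ± 0.18). gsf1, a gene tied to flocculation, fell by 0.66 and cbf12, a transcription factor that promotes adhesion, rose by 0.62. mbx2, an activator of flocculation, stood at 0.08 and was not called.

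Of 17 subunit genes of the cleavage and polyadenylation factor 2 rose and 2 fell. msi2 and yth1 rose by 0.62 and 0.36 and pta1 fell by 0.40. cft2 stood at -0.28, a call lost at -0.25 without wild-type replicate 2. ppn1 stood at -0.10 and swd22 at -0.12, not called. Of 36 genes for termination, decay and lncRNA control 4 rose and 11 fell. mmi1, which marks meiotic transcripts for removal, fell by 0.53, sen1, a termination helicase, by 0.31 and dcp2, the decapping enzyme, by 0.32, and erh1, the partner of Mmi1, rose by 0.33. Among 31 genes of other protein phosphatases 12 fell and none rose, led by par2, a regulatory subunit of PP2A, at -0.75 ± 0.08 and pyp1, a phosphatase that acts on Sty1, at -0.57 ± 0.08.

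Of 27 ergosterol genes 5 rose and 4 fell, with erg1, squalene monooxygenase, down by 0.67 and erg32, a sterol desaturase, down by 0.51, and of 23 lipid genes 3 rose and 4 fell. Of 9 thiamine-repressed genes 3 fell, with bsu1, a vitamin B6 importer, down by 0.38. Of 25 DNA damage genes 1 rose and 5 fell, chk1, the checkpoint kinase, by 0.48. Of 17 genes of the unfolded protein response and secretion 2 rose and 5 fell, and of 89 vacuolar and autophagy genes 13 rose and 16 fell. Of 35 genes for heterochromatin and telomere factors 2 rose and 7 fell, with clr5, a silencing factor, up by 0.44 and dcr1, Dicer, down by 0.37. Of 3 Tf2 retrotransposon loci tested 2 rose. Of 9 genes for PP1 and its partners 1 rose and 1 fell.

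**Figure D3:**
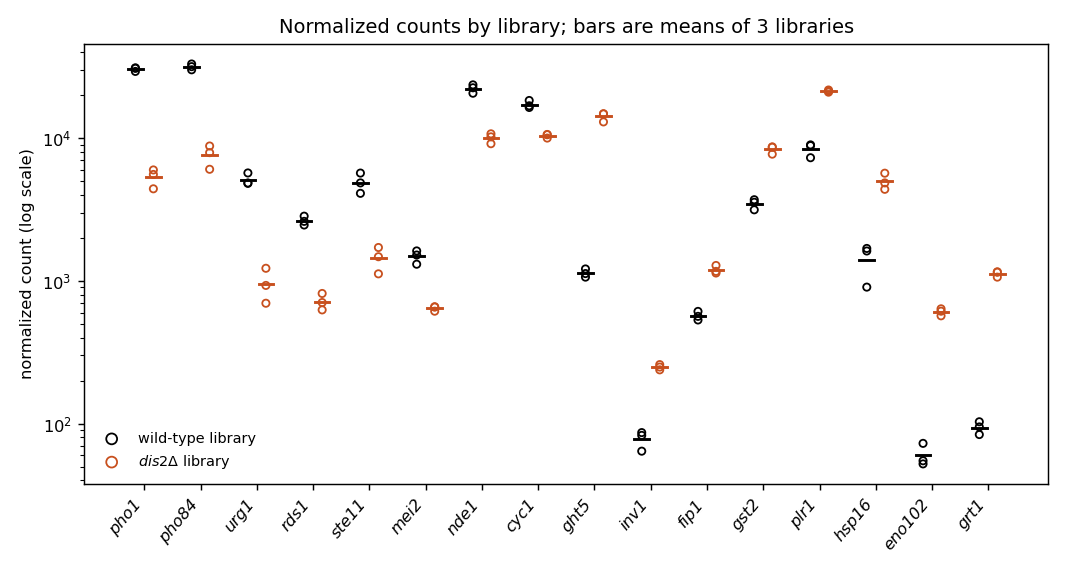
Normalized counts on a log scale for 16 genes named in the text, in the 3 wild-type libraries (black) and the 3 dis2Δ libraries (orange); bars are means. The strains do not overlap for any of the 16 genes, with pho1 between 4415 and 5986 in dis2Δ against 29331 or more in wild-type and ght5 between 12990 and 14815 against 1212 or less.

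Many of the largest rises lay near chromosome ends. Within 100 kb of an end of chromosome I or II, 73 of 114 loci tested rose and 13 fell, with a median of 0.87, against 19.5% and 21.8% over all loci. Some of these loci, such as SPAC869.01, passed the filter on low counts only through the strain in which they were high, which favors rises. With at least 10 counts required in all 12 libraries fewer loci were tested, and 46 rose and 10 fell. That stricter filter also drops loci that are low in ppn1Δ or swd22Δ. The counts by end that follow keep all loci tested. The left end of chromosome II stood out, with 26 of 29 loci higher, 2 lower and a median of 2.60. At the right end of chromosome I 21 of 33 rose (median 0.84), at the left end of chromosome I 13 of 30 (0.51) and at the right end of chromosome II 13 of 22 (0.70). Beyond 100 kb the rise faded. Between 100 and 200 kb from the left end of chromosome II the median was 0.27 over 49 loci, and between 200 and 400 kb it was 0.02. At the other ends the medians between 100 and 200 kb were 0.04 to 0.11. The outermost loci were not the highest at the right end of chromosome II, with medians of 0.17 over 5 loci within 50 kb and 0.87 over 17 loci farther in. At the other ends the median within 50 kb was the higher of the pair. Ends hold repeated sequence, and over the 84 loci with at least 90% of their 51-base words unique in the genome, 59 rose and 10 fell, with a median of 0.99.

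At the left end of chromosome II several genes rose from low counts. grt1, a transcription factor, had 103, 94.8 and 83.8 normalized counts in wild-type and 1062, 1150 and 1157 in dis2Δ, a change of 3.58 ± 0.14. fah1, annotated as an acetamidase, rose from 8.14, 22 and 17.4 to 227, 209 and 231, SPBPB8B6.02c, a urea transporter, from 18.3, 19.1 and 21.8 to 518, 499 and 484, and SPBPB10D8.02c, an arylsulfatase, from 67.1, 76.6 and 45.7 to 583, 624 and 765. The libraries of each strain kept together and lay far from the other strain, at changes of 3.79 ± 0.24, 4.66 ± 0.15 and 3.37 ± 0.25. The uncharacterized SPBPB21E7.11 rose by 3.54 ± 0.24 and aes1, of the phenazine biosynthesis family, by 2.87 ± 0.13. fah1 is annotated inside the span of grt1 on the opposite strand. The counts of both thus depend on how the counting used strand, which the sources do not give. Next to them fex2, for a fluoride exporter, fell by 1.02 ± 0.14, although 25.8% of its words are unique because of its copy fex1.

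At the other ends single genes rose as far. SPAC869.01, an amidase near the right end of chromosome I, held at most 3 counts in each wild-type library and 122, 107 and 155 normalized counts in dis2Δ, at least 41.7-fold higher when wild-type is set to 3 counts per library. SPAC186.03, for L-asparaginase, had 4.07, 6.70 and 6.53 normalized counts against 170, 152 and 285, a change of 5.10 ± 0.36, but only 38.1% of its words are unique. SPBPB2B2.06c, annotated as a phosphoprotein phosphatase near the right end of chromosome II, rose from 176, 184 and 207 to 3114, 3063 and 3108, a change of 4.04 ± 0.12. pho1, pho84 and ecl3, between 90.8 and 98.0 kb from the same end, were the 3 falls there.

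**Figure D4:**
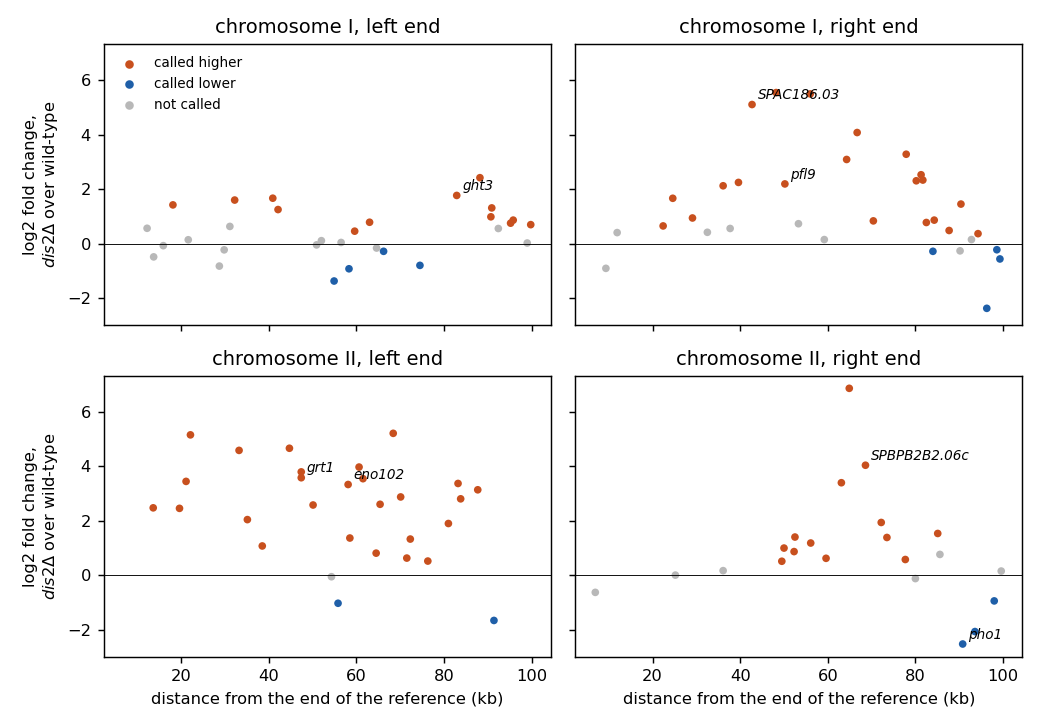
Log2 fold change of dis2Δ over wild-type for each locus tested within 100 kb of the 4 ends of chromosomes I and II, by distance from the end of the reference in kb; orange is called higher, blue called lower and grey not called. At the left end of chromosome II 26 of 29 loci lie above 0 as called rises, while pho1, pho84 and ecl3 lie below 0 at the right end.

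Of 1046 non-coding loci tested, 258 rose (24.7%) and 216 fell (20.7%), and with the 2-fold and mean-count cutoffs 41 were higher (3.92%) and 34 lower (3.25%). SPNCRNA.770, antisense to gar2, a nucleolar protein gene, rose from 8.14, 15.3 and 18.5 normalized counts to 96.3, 110 and 105, and SPNCRNA.1307, antisense to SPBPB10D8.02c, from 74.3, 76.6 and 74 to 505, 514 and 556. Both lay well above wild-type in every dis2Δ library (2.88 ± 0.27 and 2.80 ± 0.15). SPNCRNA.1301 and SPNCRNA.1093, at the chromosome ends, rose by 2.58 and 2.53, and SPNCRNA.472 by 2.17. With the same cutoff of a mean of 100 normalized counts in either strain, the 5 largest falls were those of SPNCRNA.427 (-2.66 ± 0.32), SPNCRNA.1251 (-2.66 ± 0.32), SPNCRNA.1673, SPNCRNA.316 (-2.51 ± 0.23) and SPNCRNA.1378 (-2.29 ± 0.18), the last of which meets the end of ndi1, an NADH dehydrogenase gene, on the opposite strand. ndi1 itself fell by 0.70 ± 0.06.

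Counts differed by position relative to coding genes. Of 148 tested loci that lie wholly opposite a coding locus, 67 rose and 11 fell, with a median of 0.49. Of 589 that lie partly opposite one, 146 rose and 111 fell (median 0.09), and of 242 that overlap none, 42 rose and 70 fell (median -0.11). The summed normalized counts of the 148 antisense loci were 12692, 13615 and 13535 in wild-type and 18170, 17547 and 18353 in dis2Δ, with no overlap. The 146 coding loci opposite them split 26 up and 30 down, with a median of 0.03. Among the 123 antisense loci with at least 10 counts in every wild-type library 53 rose and 11 fell.

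Library-wide values moved beside these counts. The loci wholly opposite a coding gene have a median of 33 counts in wild-type, and the 14 wholly inside one on its own strand have a median of 0. For 25 antisense loci with an abundant partner, the 10th percentile of the ratio of antisense to sense was 0.0502% to 0.0764% in wild-type and 0.134% to 0.213% in dis2Δ, and the part of strand leakage in the result was not tested. Non-coding loci took 1.09% to 1.15% of all counts in wild-type and 0.988% to 1.07% in dis2Δ. Ribosomal RNA entries took 29.2 to 37.1 CPM (counts scaled to the library total) in wild-type and 27.0, 38.4 and 73.3 in dis2Δ, highest in replicate 3, and snoRNA entries took 218 to 252 CPM against 278, 270 and 337. Of 41 snoRNA loci 13 rose and 10 fell.

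**Figure D5:**
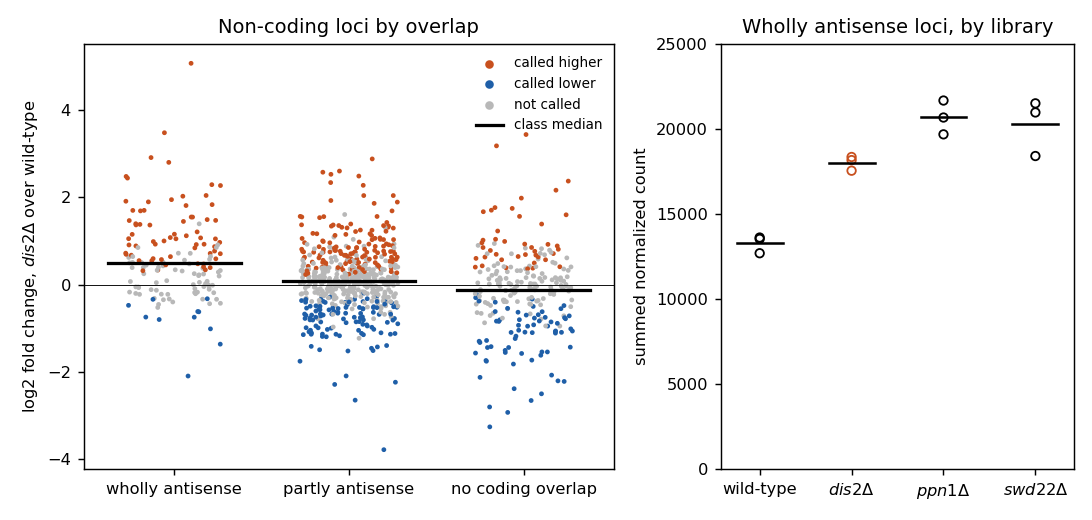
Left, log2 fold change in dis2Δ over wild-type of non-coding loci by overlap with coding loci, with called rises in orange, called falls in blue, loci not called in grey and class medians as bars (0.49, 0.09 and -0.11). Right, summed normalized counts of the 148 wholly antisense loci in each of the 12 libraries, with bars for means; the 3 dis2Δ libraries sit between 17547 and 18353 and the wild-type libraries between 12692 and 13615.

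Direct tests showed which changes differed from those of the other DPS strains. dis2Δ differed from ppn1Δ at 28.7% of loci and from swd22Δ at 18.6%. A total of 477 of 6107 loci (7.81%) were higher in dis2Δ than in both and 332 (5.44%) lower than in both. Together these 809 loci became 478 without dis2Δ replicate 2. These tests used all 12 libraries, and the 3 mutants share the wild-type libraries wherever changes from wild-type stand side by side. Of the 56 coding loci at least 2-fold above wild-type 33 were also higher than in both other mutants. Those 56, and the 27 falls taken up next, were chosen with the same dis2Δ libraries as these tests, which favors such an overlap. grt1 stood at 3.58 in dis2Δ, -0.09 in ppn1Δ and -0.95 in swd22Δ, and eno102 at 3.33, -0.76 and -1.42, both lying at the left end of chromosome II and both higher in dis2Δ than in either (edgeR's quasi-likelihood test, Benjamini-Hochberg adjusted p at most 3.5e-10). The medians over 29 loci there were 2.60, 0.57 and 0.14. They were taken without the stricter filter on low counts, so the limit given above for loci near ends holds here too. ght5 rose in all of them, by 3.65 in dis2Δ against 2.73 and 2.98 (edgeR's quasi-likelihood test, Benjamini-Hochberg adjusted p = 7e-06 and 0.00037 for the differences). Within 50 kb of the right end of chromosome I the ppn1Δ and swd22Δ medians were -4.97 and -6.62 over 11 loci, so rises of dis2Δ over those strains at that end were measured against libraries with few counts.

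Falls compared differently. Of the 27 coding loci at least 2-fold below wild-type 5 were also lower than in both other mutants: urg1, urg2, cnp3, rds1 and SPAC2H10.01. rds1 stood at -1.88 in dis2Δ, -0.88 in ppn1Δ and -0.60 in swd22Δ, and urg1 at -2.43, -1.24 and -1.38. pho1 and pho84 fell less in dis2Δ than in the others, pho1 at -2.51 against -3.82 and -3.57 and pho84 at -2.06 against -3.81 and -3.43. The same order held for ste11, at -1.76 against -2.59 and -2.31, and mei2, at -1.21 against -2.36 and -2.08, with each difference past the threshold. SPBC19C7.04c, at -2.79 against -2.80 and -3.06, was not shown to differ. Of the histone genes, hta2 stood at -0.52 in dis2Δ, 0.14 in ppn1Δ and -0.19 in swd22Δ, and htb1 at -0.38, 0.19 and -0.03, both lower in dis2Δ than in either (adjusted p at most 0.0039, edgeR's quasi-likelihood test with Benjamini-Hochberg adjustment). Medians over the 148 antisense loci were 0.49 in dis2Δ, 0.72 in ppn1Δ and 0.59 in swd22Δ, and 20 of them were lower in dis2Δ than in both others and 12 higher.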

How the data were processed

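Poly(A)+ RNA from 3 cultures each of wild-type, ppn1Δ, swd22Δ and dis2Δ cells was sequenced as stranded paired-end libraries. The authors mapped reads with HISAT2 2.1.0 and counted them with HTSeq 0.10.0, and the deposited values are raw counts per annotated locus of ASM294v2; the strand setting of the counting is not given in the sources used here. Entries numbered 6987 (1 ID appears more than once and was summed), and 0 columns were left out. Names, classes and positions came from ASM294v3, which 6833 of 6986 IDs matched; no coordinates were converted. Loci were filtered and tested with edgeR 4.0.16 in R 4.3.3 (TMM, quasi-likelihood, all 12 libraries, 1 mean per strain), with DESeq2 1.42.0 as an alternative. The cutoffs were adjusted p 0.05, 2-fold and a mean of 100. The members of lists and the comparisons were chosen with earlier results of these data known. Named loci were dis2 and its neighbors, up to 6 called members of each list with the largest change at a mean of 100 or more, list regulators, and, with these cutoffs, the largest changes among coding (10 each way) and non-coding (5 each way) loci; others are marked as picked after their values were seen. On simulated counts of this comparison (6008 loci), 100 loci were given a change of 0.5 and 100 a change of 1 on the log2 scale. Of these, 82 and 98 were recovered with the right sign, and there were 9 false calls. In the data 41.3% of loci were called, and recovery at such a share of changed loci was not tested. The number of false calls at that share was not tested either. Replicates differed by more than sampling noise (the lowest chi-square for a pair, divided by its degrees of freedom, was 5.38), so none were merged. P-values measure the spread between cultures of 1 strain each.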

Additional observations from a re-analysis of the deposited data

How the results depend on the processing

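The alternatives were DESeq2, RLE or library-size scaling, no low-count filter or at least 10 counts in every library, a fit on the 6 libraries alone, a replicate block, other thresholds and leaving out each library in turn. The counts of loci called moved by over 1.5 times with other thresholds and subsets and, for loci that differed from both other mutants, without dis2Δ replicate 2. At adjusted p 0.01, 738 loci were higher, and 415 loci differed from both other mutants. At 1.5-fold, 403 loci were higher and 331 lower, 130 coding loci took the place of the 56 at 2-fold and 140 that of the 27, and 262 differed from both mutants. Without the cutoff on mean counts 95 coding loci were at least 2-fold higher. Non-coding loci that overlap no coding locus, a subset chosen after seeing the data like the counts for chromosome ends and antisense loci, gave 42 higher and 70 lower. With at least 10 counts in every library 46 loci near chromosome ends were higher, since fewer were tested. Leaving out single libraries gave 478 (without dis2Δ replicate 2) to 818 loci that differed from both mutants, 918 to 1194 higher and 1006 to 1210 lower.

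With the replicate number as a block 1202 loci were higher and 1324 lower. Same-numbered libraries correlated at 0.254, -0.0127 and -0.366 in their deviations, so the numbers do not pair the samples.

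Near 0, sds21 changed sign (0.002 with DESeq2, with RLE scaling and with at least 10 counts in every library, 0.0 with the 6 libraries alone, -0.032 to 0.022 when libraries were left out), as did pfk1 (-0.031 to 0.081), scr1 (-0.038 to 0.056) and sdh1 (-0.015 to 0.067), none of them called. gpd3, not called at -0.34, was called in the fit on 6 libraries and with the block. The medians over all loci stayed between -0.0103 and 0.0156. The cause of these shifts was not tested. The 3 replicates from 1 strain each, counts near 0 and unstated strand use in the counting limit the smallest shifts and the antisense loci most.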
